A study of Mus musculus with 6 samples.

Results

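The genes described here are 9 genes used to recognise and describe tuft cells of the gut epithelium: Dclk1, Trpm5, Avil, Sh2d6, Il17rb, Ptpn6, Cd24a, Alox5ap and Ptgs1. They were picked out by gene symbol, with earlier results of these data known, and all 9 are among the 27179 genes listed. RNA was sequenced from small-intestinal organoids of mice of WT genotype, kept in Matrigel and Intesticult; organoids are cultures of gut epithelium that form crypt-like buds in a gel. The T3 group, 3 libraries, had received T3, the active thyroid hormone, at 1e-07 M during 17 h, and the vehicle group, also 3 libraries, the vehicle during the same time. Strain and age are not given in the sources used here. Nor do the labels say whether libraries of a group are different animals or cultures: the p-values below describe spread among 6 libraries and that spread may be technical.

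Tuft cells are rare chemosensory cells of the gut lining. When they sense products of parasites or microbes, calcium released inside the cell opens the cation channel TRPM5, and the cells release the cytokine IL-25 and lipid mediators made from arachidonic acid, which act on innate lymphoid cells beneath the epithelium. Those lymphoid cells answer with IL-13, which drives crypt cells to make more tuft cells; organoids lack this arm of the circuit unless lymphoid cells or cytokines are added.

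All 9 genes gave reads in all 6 libraries, which summed to 29510422 to 29974091 normalized reads with T3 and 28197080 to 28611883 with vehicle. A normalized read here is the authors' deposited value for a gene, a read number rescaled among libraries and then rounded. Epithelial identity markers (Epcam, Cdh1, Cdx2, Vil1, Krt8, Krt20 and Lgals4) summed to 204007 to 210044 normalized reads in T3 libraries and 175669 to 185146 in vehicle libraries. Of 22 markers of immune cells, which also use Ptpn6, Alox5ap and Ptgs1, 11 were listed at 0 in every library, among them Cd4 and Tyrobp, and Ptprc, the pan-leukocyte marker, was listed at 0 to 3. The immune list summed to 930 to 1204 in T3 libraries and 889 to 1000 in vehicle libraries, mostly Kit, Itgam and Cd14. Kit, also a gene of mast cells, was lower with T3 (518.7 ± 123, against 691 ± 39.6 with vehicle, limma adjusted p = 0.0372). Cpa3 and Mcpt1, other mast cell genes, were listed at 0 in every library. Itgam was higher with T3 (349 ± 7.55, against 97.3 ± 15.2), and so was Cd14 (152.3 ± 13.6, against 104.7 ± 3.06). The part of Kit, Itgam and Cd14 in the values of Ptpn6 was not tested. Some other tuft markers had almost no reads: Gfi1b, a tuft cell transcription factor, was listed at 0 to 4, Il25 and Chat at 0 or 1, and Sucnr1, the succinate receptor, at 0 throughout. Others stood at levels like those of the 9, such as Pou2f3 at 41 to 93 and Ltc4s at 18 to 36.

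The RefSeq promoter windows on GRCm38.p6, 250 bases before to 50 after a gene's start, are shown, as the stretch where regulators of these genes may bind, for the called genes that have one in the table used, and for Dclk1, whose window held a searched motif. The windows are the strand of the gene, and capitals mark a match to a motif.
Trpm5, chr7:143094593-143094892, minus strand: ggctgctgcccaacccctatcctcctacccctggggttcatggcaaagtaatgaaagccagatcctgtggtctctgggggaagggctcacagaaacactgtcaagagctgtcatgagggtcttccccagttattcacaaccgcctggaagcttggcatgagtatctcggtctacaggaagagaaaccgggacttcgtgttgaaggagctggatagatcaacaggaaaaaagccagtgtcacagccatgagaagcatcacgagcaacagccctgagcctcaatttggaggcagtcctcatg
Il17rb, chr14:30008847-30009146, minus strand: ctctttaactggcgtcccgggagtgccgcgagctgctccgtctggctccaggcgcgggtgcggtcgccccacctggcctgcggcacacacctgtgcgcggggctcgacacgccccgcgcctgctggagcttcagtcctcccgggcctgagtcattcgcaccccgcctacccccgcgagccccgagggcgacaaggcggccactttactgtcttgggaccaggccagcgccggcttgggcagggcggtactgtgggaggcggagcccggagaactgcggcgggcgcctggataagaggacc
Ptpn6, chr6:124738660-124738959, minus strand: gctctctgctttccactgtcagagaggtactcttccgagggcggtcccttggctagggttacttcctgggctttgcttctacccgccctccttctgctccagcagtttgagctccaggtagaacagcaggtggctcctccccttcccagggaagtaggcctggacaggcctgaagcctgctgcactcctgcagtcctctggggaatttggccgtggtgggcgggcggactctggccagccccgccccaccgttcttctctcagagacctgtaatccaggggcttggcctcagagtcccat
Dclk1, upstream start, chr3:55242114-55242413, plus strand: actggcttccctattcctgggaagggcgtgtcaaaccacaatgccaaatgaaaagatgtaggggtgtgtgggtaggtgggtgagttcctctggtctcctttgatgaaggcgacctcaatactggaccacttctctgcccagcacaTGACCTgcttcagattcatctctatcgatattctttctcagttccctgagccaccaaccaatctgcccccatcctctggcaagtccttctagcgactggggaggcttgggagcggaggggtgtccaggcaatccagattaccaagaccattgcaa
The motifs were TGCAAAT, the core of the octamer bound by POU factors such as the tuft cell regulator POU2F3, and AGGTCA, the half-site bound by many nuclear receptors, thyroid hormone receptors among them, each searched on both strands. Of the 8 windows of 7 of the 9 genes, 0 held TGCAAAT, which 4.02% of all 32851 windows held. The half-site was in 1 of the 8, the upstream Dclk1 window, as its reverse complement TGACCT at bases 146 to 151, against 16.3% of all windows. That window ends before 55242526, where the Dclk1 gene used for read values begins, so its RefSeq start is a different one. The windows ranged from 43.0% G and C bases for Avil to 72.0% for Il17rb, with a median of 52.7% over all windows. Cd24a and Alox5ap have no window shown.

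The 9 genes spanned a wide range of levels. On the scale of normalized reads per kilobase of exon, Cd24a averaged 4863 ± 70.5 with T3 and 5479 ± 346 with vehicle (SD, n = 3 each here and below), and Ptpn6 averaged 198.5 ± 21.8 with T3 and 257.4 ± 10.0 with vehicle. The other 7 lay far lower. Il17rb averaged 27.5 with T3 and 42.5 with vehicle, Avil 27.3 with T3 and 31.3 with vehicle, and Trpm5 17.5 with T3 and 25.6 with vehicle. Alox5ap averaged 10.9 with T3 and 13.3 with vehicle, Sh2d6 8.09 with T3 and 10.7 with vehicle, and Dclk1 7.36 with T3 and 6.57 with vehicle. Ptgs1 was lowest, at 2.33 with T3 and 1.98 with vehicle. In the order of vehicle levels, the ranges of the vehicle libraries overlapped between the neighbours Avil and Trpm5, Trpm5 and Alox5ap, Alox5ap and Sh2d6, and Sh2d6 and Dclk1. Only Cd24a, Ptpn6, Il17rb and Ptgs1 stood clear of both neighbours among vehicle libraries, and with T3 Il17rb overlapped Avil. Dclk1, a widely used tuft cell marker, was second lowest in mean per exon length, over 12995 summed exon bases, though its vehicle range overlapped that of Sh2d6.

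**Figure D1:**
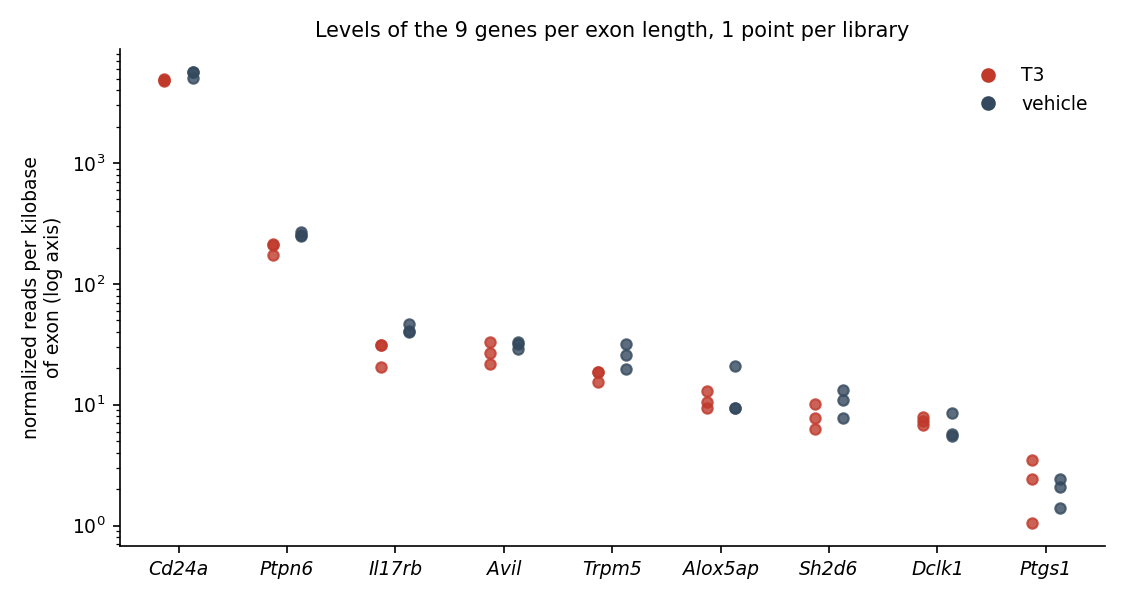
Normalized reads per kilobase of exon (log axis) for the 9 genes, with 1 point per library, T3 left of vehicle for each gene. Cd24a and Ptpn6 lie above the other 7, whose means run from 1.98 to 42.5 with vehicle.

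T3 libraries held less of 4 of the 7 genes that could be tested: Cd24a, Ptpn6, Il17rb and Trpm5. The decreases were small, from 1.13-fold for Cd24a to 1.56-fold for Il17rb. Dclk1, Avil and Sh2d6 were not called in either direction, and Alox5ap and Ptgs1 had too few reads to be tested, which needed at least 10 normalized reads in at least 3 libraries. A gene was called at a Benjamini-Hochberg adjusted p under 0.05 over all 13052 genes tested with limma, on log2(value + 1). By this rule 20.8% of all tested genes were called lower with T3 and 44.8% in either direction, so a call was common in this comparison. None of the 7 was called higher by limma (0 also at an unadjusted p under 0.05, and 0 in the authors' deposited table), where 24.0% of all tested genes were. Among all called genes 46.4% were lower with T3, and 61.2% or 57.0% were when the libraries were rescaled to equal totals or to equal upper quartiles, under which the same number of the 7, 4, was lower. The libraries of the groups did not overlap for 4 of the 7, all lower with T3; among all tested genes 54.9% did not overlap, 26.5% lower with T3. The fold change was below 0 for 6 of the 7 and for 51.3% of all tested genes. The median log2 fold change of the 7 was -0.37, which is the value of Sh2d6, a gene with few reads that was not called. The median of all tested genes was -0.01. In such bulk samples fewer tuft cells, less RNA per tuft cell and a change in other cells that carry these genes cannot be told apart.

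**Figure D2:**
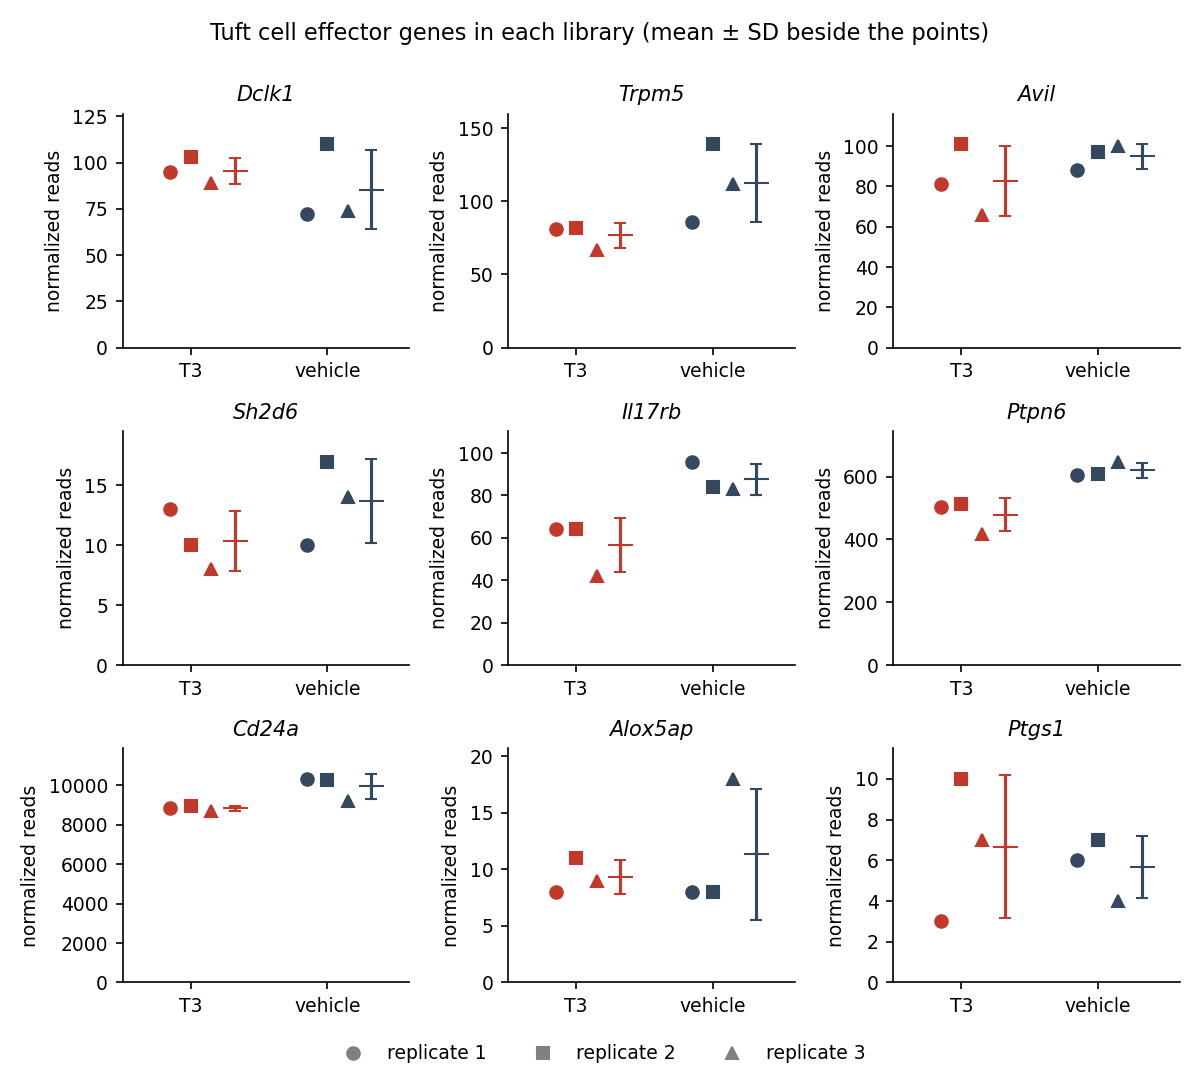
Normalized reads of each of the 9 genes by library, T3 left and vehicle right, with symbols for replicates and the mean ± SD beside the points (each vertical axis starts at 0). Trpm5, Il17rb, Ptpn6 and Cd24a show no overlap between groups, and T3 replicate 3 is the lowest T3 library for 7 of the 9.

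Among genes of sensing and signalling, Trpm5 encodes the calcium-activated cation channel that depolarises tuft and taste cells (gene ID 56843, mm10 chromosome 7, 143071529 to 143094642, minus strand, 25 exons). It stood at 81, 82 and 67 normalized reads in T3 replicates 1 to 3, against 86, 139 and 112 in vehicle replicates 1 to 3. Every T3 library was below every vehicle library, and the nearest pair was T3 replicate 2 and vehicle replicate 1. The log2 fold change was -0.52 ± 0.18 (SE; 95% interval -0.93 to -0.12; limma adjusted p = 0.0404). Leaving out any library but vehicle replicate 1 ended the call, at adjusted p = 0.0734, 0.0586 and 0.101 without T3 replicates 1, 2 and 3, and at 0.148 and 0.103 without vehicle replicates 2 and 3. Without vehicle replicate 1 the adjusted p was 0.00847.

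Il17rb encodes a subunit of the receptor for IL-25, the cytokine that gut tuft cells release (gene ID 50905, chromosome 14, 29996168 to 30008896, minus strand, 11 exons). It stood at 64, 64 and 42 normalized reads in the T3 libraries, against 96, 84 and 83 in the vehicle libraries, with no overlap. It had the lowest log2 fold change of the 7, -0.64 ± 0.19 (SE; interval -1.06 to -0.23; limma adjusted p = 0.0185). The call was lost without vehicle replicate 1, the highest library (adjusted p = 0.0577), and held in the other 5 sets.

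Ptpn6 encodes SHP-1, an SH2 domain tyrosine phosphatase that dampens signalling downstream of surface receptors and is a marker of tuft cells as well as of blood cells (gene ID 15170, chromosome 6, 124720718 to 124738709, minus strand, 17 exons). It stood at 503, 514 and 418 normalized reads in the T3 libraries, against 604, 609 and 648 in the vehicle libraries. The groups were well apart, and T3 replicate 3 was again lowest. The log2 fold change was -0.38 ± 0.09 (SE; interval -0.57 to -0.19; limma adjusted p = 0.00527), and Ptpn6 alone of the 4 called genes kept its call whichever of the 6 libraries was left out, at adjusted p of 0.00568 to 0.0262.

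Sh2d6 encodes an SH2 domain protein used as a tuft cell marker (gene ID 71130, chromosome 6, 72513652 to 72520650, 12 exons). It stood at 13, 10 and 8 normalized reads in the T3 libraries, against 10, 17 and 14 in the vehicle libraries, just above the filter on low values. The groups overlapped, and the log2 fold change of -0.37 had a 95% interval from -1.08 to 0.35 (limma adjusted p = 0.382), so a 2-fold decrease is inside the interval and no difference was detectable at this depth; the value was -0.20 without vehicle replicate 2 and -0.56 without vehicle replicate 1.

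Cd24a encodes a small glycoprotein anchored to the cell surface by a lipid, high on tuft cells and also carried, at differing levels, by other crypt cells such as Paneth, enteroendocrine and stem cells (gene ID 12484, chromosome 10, 43579169 to 43584265, plus strand, 2 exons). It stood at 8872, 8933 and 8687 normalized reads in the T3 libraries, against 10331, 10294 and 9226 in the vehicle libraries. The T3 libraries were close together and vehicle replicate 3 lay nearest to them. The log2 fold change was -0.17 ± 0.05 (SE; interval -0.28 to -0.06; limma adjusted p = 0.0176). The call was lost without T3 replicate 1 (adjusted p = 0.0545), vehicle replicate 1 (0.052) and vehicle replicate 2 (0.0719). Of the other cells that carry it, Paneth cell markers summed to 97129 to 123279 normalized reads with T3 and 61830 to 67150 with vehicle, a gap carried by Itln1. Without Itln1 they summed to 23796 to 34909 with T3 and 28888 to 34288 with vehicle, and 5 of the 7 tested Paneth markers were not called. Enteroendocrine markers summed to 12842 to 17389 with T3 and 14412 to 18621 with vehicle, and 9 stem cell markers, 6 of them called lower, to 71059 to 79810 with T3 and 100493 to 115964 with vehicle; their part in the Cd24a values was not tested. Of its 1816 exon bases, 482 are shared with an unnamed gene on the opposite strand that averaged 0 with T3 and 0.333 with vehicle.

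The 2 cytoskeletal genes were not called. Dclk1 encodes a doublecortin-like kinase that binds microtubules (gene ID 13175, chromosome 3, 55242526 to 55539068, plus strand, 20 exons). It stood at 95, 103 and 89 normalized reads in the T3 libraries, against 72, 110 and 74 in the vehicle libraries. The vehicle libraries spanned the whole T3 range, with vehicle replicate 2 apart from the other two. The log2 fold change, the one above 0 among the 7, was 0.19 ± 0.18 (SE; interval -0.21 to 0.58; limma adjusted p = 0.417), and it was 0.38 without vehicle replicate 2 (adjusted p = 0.0728) and 0.08 without vehicle replicate 1. Avil encodes advillin, an actin-binding protein of the villin family found in the tuft of microvilli (gene ID 11567, chromosome 10, 127000709 to 127020994, plus strand, 20 exons). It stood at 81, 101 and 66 normalized reads in the T3 libraries, against 88, 97 and 100 in the vehicle libraries, so T3 replicate 2 was the highest of all 6 and T3 replicate 3 the lowest. The log2 fold change was -0.22 ± 0.17 (SE; interval -0.59 to 0.15; limma adjusted p = 0.319), and it was -0.07 without T3 replicate 3.

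**Figure D3:**
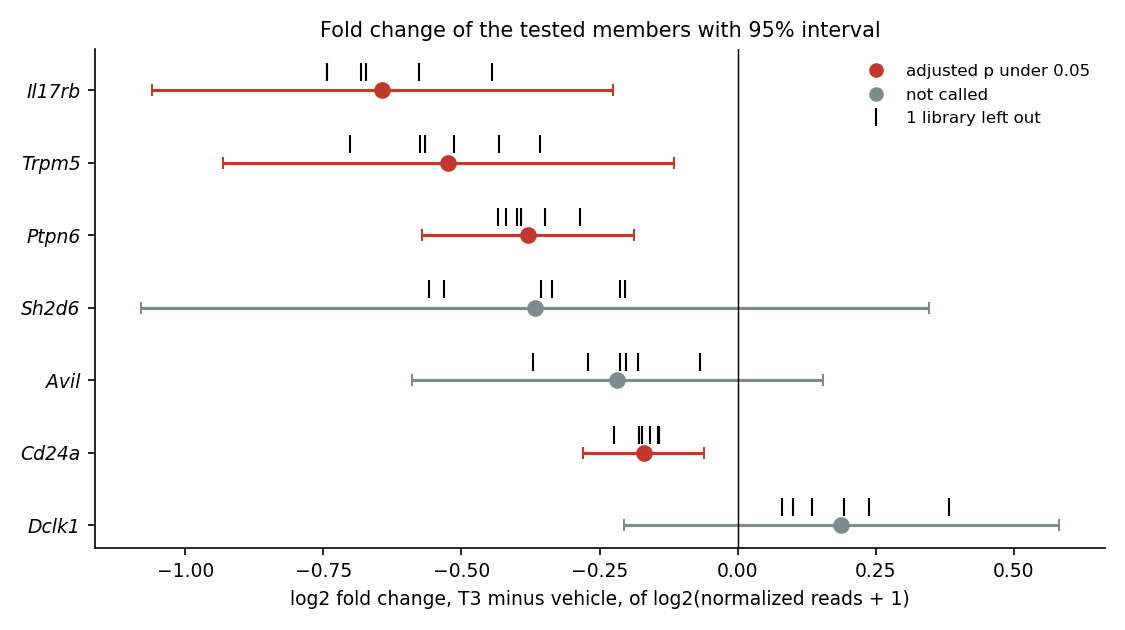
Log2 fold change of the 7 tested genes, T3 minus vehicle, with its 95% interval (points and bars) and the 6 values with 1 library left out (ticks). Intervals of Il17rb, Trpm5, Ptpn6 and Cd24a lie below 0, those of Sh2d6, Avil and Dclk1 include 0, and no tick crosses 0.

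The 2 genes of lipid mediator synthesis were near the limit of detection. Alox5ap encodes the protein that presents arachidonic acid to 5-lipoxygenase for leukotriene synthesis (gene ID 11690, chromosome 5, 149265058 to 149288047, plus strand, 5 exons). It stood at 8, 11 and 9 normalized reads in the T3 libraries, against 8, 8 and 18 in the vehicle libraries. Of its 854 exon bases, 189 are shared with Gm19719, a gene on the opposite strand that averaged 0 with T3 and 0 with vehicle. Ptgs1 encodes cyclooxygenase 1, which turns arachidonic acid into the precursor of prostaglandins (gene ID 19224, chromosome 2, 36230426 to 36252269, plus strand, 11 exons). It stood at 3, 10 and 7 normalized reads in the T3 libraries, against 6, 7 and 4 in the vehicle libraries. The groups overlapped for both genes, with 2 libraries at 10 or more for Alox5ap and 1 for Ptgs1. Without the filter, the 95% interval of the log2 fold change ran from -1.02 to 0.68 for Alox5ap and from -0.90 to 1.12 for Ptgs1.

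T3 replicate 3 was the lowest T3 library for all 7 tested genes, and the lowest of all 6 libraries for 6 of the 9. It was also the lowest T3 library in the summed goblet cell markers (64217 normalized reads, against 97570 and 102610 in T3 replicates 1 and 2, with 74966 to 92958 in vehicle libraries), in the enteroendocrine sum (12842) and in the Paneth sum (97129, above the 61830 to 67150 of vehicle libraries). Not every list went this way. In the stem cell sum T3 replicate 3 was the highest T3 library (79810, against 74726 and 71059 in T3 replicates 1 and 2). For summed enterocyte markers T3 replicate 3 (100273) stood between T3 replicates 1 (112872) and 2 (97885). The authors' deposited table, made from the same libraries, gives an adjusted p under 0.05 for the same 4 genes, all lower with T3: 0.00143 for Ptpn6, 0.00867 for Cd24a, 0.0345 for Il17rb and 0.0456 for Trpm5. At that threshold 15.8% of all genes with an adjusted p in the authors' deposited table were lower with T3. Over the 6 libraries, the tested genes outside the lists used here whose centred log2 values lay closest to the mean profile of the 7 were Prmt2, Jph4 and Fam213a, with a root mean square difference of 0.0431, 0.045 and 0.0528. Of the 7 themselves Ptpn6 lay closest, at 0.0969, and Dclk1 farthest, at 0.281. Each of the 7 is part of that mean profile. Even so, of 13052 tested genes 83 lay closer to it than Ptpn6, 279 closer than Avil and 836 closer than Cd24a. For Trpm5 and Sh2d6 these counts were 1462 and 2206, and for Il17rb and Dclk1 they were 6178 and 8284.

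Other genes of tuft cell biology moved in both directions. Of 114 such genes in 6 lists, beside the 9, 88 were tested, of which 23 were called higher with T3 and 20 lower, or 26.1% and 22.7%, close to the 24.0% and 20.8% of all tested genes. Their median log2 fold change was -0.03. The counts of each list here and below are to be read beside these shares of all tested genes, and no list was tested as a set. Of 7 tested transcription factors linked to tuft cells or their progenitors, 5 were lower with T3 and the other two were not called. Pou2f3, the regulator required for tuft cells, stood at 41, 47 and 43 normalized reads in T3 libraries and at 83, 93 and 66 in vehicle libraries (log2 fold change -0.86, limma adjusted p = 0.00256). Ascl2 fell to 103 ± 10.6 with T3, against 291 ± 22.1 with vehicle, Sox4 to 3649 ± 179, against 5427 ± 288, and Sox9 to 1728 ± 273, against 2495 ± 126. The fifth, Runx1, named because it completes the count, fell 1.58-fold. Ascl2 and Sox9 are also genes of crypt stem cells, and the part of the lower stem cell markers in these values was not tested.

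**Figure D4:**
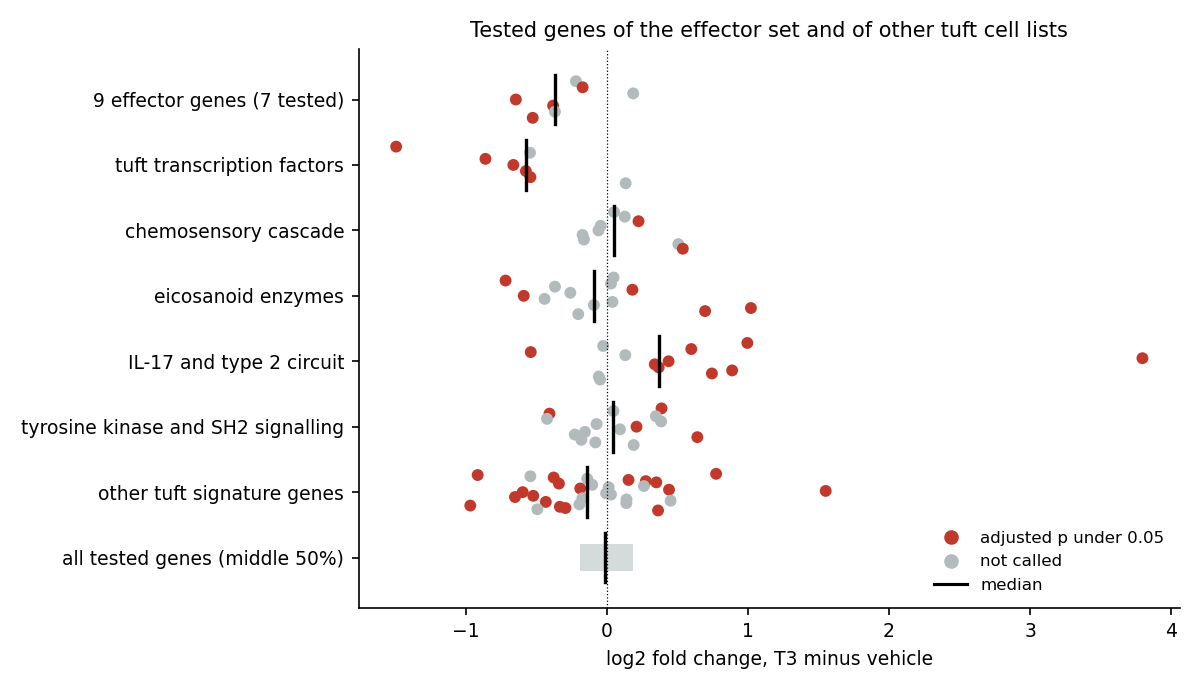
Log2 fold change, T3 minus vehicle, of each tested gene in the effector set and in 6 other lists of tuft cell genes, with medians as black lines and the middle 50% of all tested genes as a bar. Medians run from -0.57 for transcription factors to 0.37 for the IL-17 and type 2 circuit.

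In the chemosensory cascade, which links receptors to Trpm5, 2 of 9 tested genes were higher with T3, beside 24.0% of all tested genes, and 7 were not called. Trpm4, a calcium-activated channel related to Trpm5, rose to 2706 ± 123 normalized reads with T3, against 1861 ± 53.1 with vehicle, and Gnb1, a G protein beta subunit of many cell types, rose 1.17-fold. Itpr3, the calcium release channel of the cascade, averaged 11264 ± 196 with T3 and 11730 ± 354 with vehicle (limma adjusted p = 0.256). The tuft-type G protein genes Gnat3, Gng13 and Gnb3 were listed at 0 to 3 in every library, too few reads to test.

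Among 13 tested genes of eicosanoid synthesis and transport 3 were higher and 2 lower, beside 24.0% and 20.8% of all tested genes. Pla2g4a, the phospholipase that frees arachidonic acid upstream of Alox5ap and Ptgs1, fell to 1219 ± 152 normalized reads with T3, against 1825 ± 117 with vehicle, and Abcc4, an exporter of prostaglandins among other substrates, fell 1.64-fold. Slco2a1, a prostaglandin uptake transporter, rose 1.62-fold. Lta4h, which makes leukotriene B4, rose 1.13-fold, a call lost without T3 replicate 1 (adjusted p = 0.071) or vehicle replicate 2 (0.0617), with equal totals (0.0668) and without a mean-variance trend (0.055). Ptgs2, the inducible relative of Ptgs1, stood at 39, 21 and 21 normalized reads in T3 libraries and at 7, 16 and 16 in vehicle libraries (limma adjusted p = 0.0487), a call that leaving out any of 4 libraries ended: the adjusted p was 0.187 and 0.0597 without T3 replicates 1 and 2 and 0.137 and 0.0571 without vehicle replicates 1 and 3. It was also lost with equal totals (0.0564) and upper-quartile scaling (0.0534), without the filter on low values (0.092) and without a mean-variance trend (0.0854). Ptges3, the second most abundant of the list, averaged 2887 ± 271 with T3 and 3067 ± 108 with vehicle and was not called. Of the enzymes of tuft cells, Hpgds averaged 11.3 with T3 and 15 with vehicle, Ltc4s averaged 21.3 with T3 and 26.7 with vehicle, neither was called, and Alox5 was listed at 3 to 7.

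In the list of IL-17 receptors and the type 2 cytokine circuit 8 of 13 tested genes were higher with T3 and 1, Il17rd, was lower, with a median log2 fold change of 0.37. Il33, an alarmin, rose to 133.7 ± 5.69 normalized reads with T3, against 9 ± 3 with vehicle, and Traf3ip2, the adaptor ACT1 that IL-17 receptors share, rose 1.68-fold. Stat6, the transcription factor activated by IL-4 and IL-13, rose to 6224 ± 560, against 3353 ± 113, and Jak1, a kinase of cytokine receptors, rose 1.27-fold. Il13ra1 and Il4ra, the chains of the IL-13 receptor, named after their values were seen, rose 2.00-fold and 1.36-fold. Il17rb, the IL-25 receptor subunit, was thus lower in the libraries in which most genes of this list were higher; the difference between them was not tested.

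Of 15 tested genes of tyrosine kinase and SH2 signalling 3 were higher with T3 and 1 lower, beside 24.0% and 20.8% of all tested genes. Ptpn18, a phosphatase, rose 1.56-fold, Bcl2l14 1.31-fold and Lyn, a kinase named because it completes the count, 1.16-fold, while Csk, the kinase that restrains Src family kinases, fell 1.32-fold. Among 31 other tested genes of tuft cell signatures 7 were higher and 11 lower. Acot7 rose 1.71-fold and Lect2 to 57.3 ± 8.08 normalized reads with T3, against 19 ± 3.61 with vehicle. Strip2 fell 1.95-fold, Aldh2 1.30-fold and Krt18, a keratin of simple epithelia and the most abundant gene of the list, 1.14-fold. Most abundant genes of these lists are expressed by many epithelial cells and are not measures of tuft cells alone.

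Relatives of the 9 genes changed in both directions. Of 22 tested relatives 7 were higher with T3 and 8 lower, beside 24.0% and 20.8% of all tested genes. Vil1, the villin gene of the brush border and a relative of Avil, rose to 26689 ± 764 normalized reads with T3, against 17116 ± 719 with vehicle, and Gsn, the gelsolin gene, rose 3.24-fold. In the same family Capg rose 1.81-fold, and Scin and Svil fell 1.58-fold and 1.11-fold, all named after their values were seen. The Svil call (limma adjusted p = 0.0342) was lost in several alternative runs, such as without a mean-variance trend (0.0781). Blnk, an adaptor gene listed beside Sh2d6, rose 1.85-fold. Ptpn11, the closest relative of Ptpn6, averaged 5366 ± 137 with T3 and 5162 ± 80.3 with vehicle (limma adjusted p = 0.251). Dclk2 and Dclk3, named after their values were seen, fell 2.03-fold and 4.53-fold, to means of 10.0 with T3, against 21.3 with vehicle, for Dclk2 and of 8 with T3, against 38 with vehicle, for Dclk3. Mgst1 and Mgst3, membrane proteins of the same family as Alox5ap, fell 2.02-fold and 1.40-fold. The differences between each gene and its relatives were not tested.

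**Figure D5:**
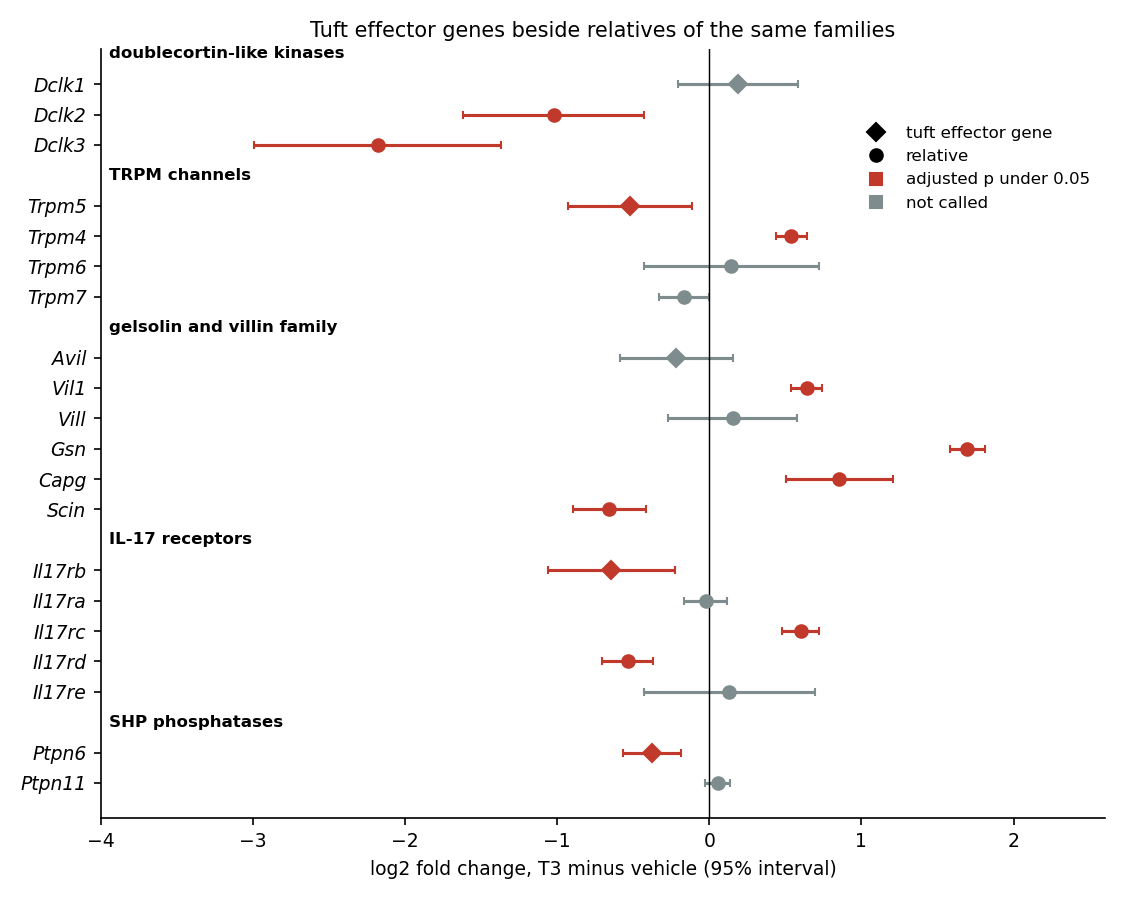
Log2 fold change, T3 minus vehicle, with 95% intervals for 5 of the 9 genes (diamonds) and some of the tested relatives (circles), coloured where the adjusted p was under 0.05. Trpm5 lies below 0 and Trpm4 above, and Dclk1 includes 0 where Dclk2 and Dclk3 lie below.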

How the data were processed

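The 3 T3 and 3 vehicle libraries were directional, per the labels' protocols. The submitters' processing notes name STAR, Subread and DESeq2; versions, and whether reads were counted by strand, are not given. The authors' deposited sample columns hold reads scaled between libraries and rounded, a normalized score on mm10 (GRCm38), per the file headers. The authors' deposited overall mean lies within 0.833 of the mean over the 6 libraries. The authors' deposited log2 fold changes and p-values were used only where named, and exon length as listed; a shorter deposited table was not used here. Rounded values do not restore counts, so no count model was applied.

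Here limma 3.58.1 with statmod 1.5.0 in R 4.3.3 was fitted to log2(value + 1) over the 13052 genes with at least 10 in at least 3 libraries, with a mean-variance trend and no replicate block. The code was also run on simulated counts with the same dispersion for every gene and independent libraries. Those counts differ from the scaled and rounded values, so that run checks the code and not the calls near the threshold. Fold changes on this scale understate changes of low genes. Read depth before scaling is unknown; if each normalized read stood for 1 read, counting error alone would give an SD of 9.24 at the vehicle mean of Dclk1 (85.3). Members and lists were chosen by symbol, with earlier results of these data known, and no measured value enters the rule. Beyond the 9 genes, named genes are, per list, the 2 with the smallest p in each direction and the 2 with the highest level, plus a few fixed names; exceptions are stated. Alternatives were other scalings, pseudocounts, filters, variance models, a replicate block and leaving out each library.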

Additional observations from a re-analysis of the deposited data

How the results depend on the processing

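The log2 fold change of each of the 7 tested genes kept its sign in every alternative run. The count of the 9 genes called lower, 4, stayed at 3 or 4 under other scalings, pseudocounts, filters, robust variances and the replicate block, was 2 without a mean-variance trend, where Trpm5 (adjusted p = 0.0717) and Cd24a (0.0606) were lost, and was 2 to 3 with a library left out. Without a filter on low values Trpm5 was lost (0.077), where more genes were tested. With a replicate block the count was again 4, and the Ptgs2 call was lost (0.0918). Same-numbered libraries did not deviate together (correlations -0.07, 0.028 and -0.057), so the numbers were not taken to pair libraries. Equal totals and upper-quartile scaling moved the median log2 fold change of all genes to -0.07 and -0.05. Low reads limit Sh2d6, Alox5ap and Ptgs1 most.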
